A study of Mus musculus with 6 samples.

Results

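Messenger RNAs of the skeletal muscle sarcomere and its supply were followed in total RNA from the basal part of the mouse cochlea. The genes were Acta1, Tnnt3, Tnnt1, Myl1, Mylpf, Ttn, Neb, Des, Ckm and Atp2a1, selected by gene symbol in the deposited tables, 10 of 34395 gene entries. The libraries came from C57BL/6J mice, an inbred strain that loses hearing early in life, first for high tones, which the cochlear base detects. The labels call 3 of them young and 3 old. No treatment or altered allele is named for either group, and neither the ages and the sex nor the number of animals behind a library are stated in the labels. The labels do not say that the libraries are from separate animals, so every p-value below measures only the spread between these libraries. The genes were picked with their old and young values already known. Their differences between the age groups are therefore given as descriptions with a standard error and without a test.

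The sarcomere is the contractile unit of striated muscle, in which thick filaments of myosin slide along thin filaments of actin. Titin spans from the border of the unit, the Z disc, to its middle, nebulin runs along the thin filament, and the troponin complex makes contraction depend on calcium. Fast and slow muscle fibres use different versions of many of these proteins. The organ of Corti holds no striated muscle, whereas the middle ear next to the cochlea holds the stapedius and tensor tympani muscles. In bulk tissue, fewer cells of a type and less RNA per cell cannot be told apart.

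Gene counts added up to 37084017 to 39433584 per young and 26245416 to 26839068 per old library, so that a count of 0 allows up to 3 counts, or 0.084 to 0.104 CPM (counts scaled by the TMM-adjusted library total). That limit covers counting error only. Of the 20157 genes tested with edgeR's quasi-likelihood test, 5427 (26.9%) rose and 5496 (27.3%) fell with age at a Benjamini-Hochberg adjusted p under 0.05, together 54.2%. The female transcript Xist had 12613 to 18384 counts in young and 0 to 9 in old libraries. The Y-linked Ddx3y and Kdm5d were at 0 counts in young and at 675 to 1107 in old libraries. Uty, also Y-linked, was not at 0 in young libraries, with 63 to 90 counts against 2364 to 2413 in old ones. Age and this sex-linked profile cannot be told apart in any comparison below. Of 10 bone genes 8 fell, of 9 blood genes 9 fell, and of 14 genes of cochlear tissue 9 fell and 3 rose. The summed level of the bone genes was 4103 to 4682 CPM in young and 2344 to 2516 CPM in old libraries, and that of the blood genes was 2422 to 5275 CPM and 433 to 1286 CPM. Library totals alone moved the median log2 fold change of all genes by 0.27 relative to the TMM scaling used here, and every log2 fold change below is on the TMM scale where no other is stated.

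The defining factors of the muscle lineage were at or near 0. Myog, Myf6 and Mymk, which encode factors of myoblast differentiation and fusion, had no counts in any of the 6 libraries. Myod1, a master factor of the lineage, had 1 count in all, in young 3. Of the other listed factors, Mymx had 1 count, in young 1, and Pax7 had 2 counts in young 2 and 2 in old 2. Whether muscle cells gave RNA to these libraries was not tested. The 10 sarcomere genes had at least 1 count in each library, although the 1 count of Tnnt3 in old 1 lies below the limit of 3 counts. Per transcript length their levels were low, from 0.05 to 7.6 FPKM (fragments scaled by transcript length and library total). Their combined counts ran from 3207 to 4112 in young and from 7485 to 7969 in old libraries, and Ttn and Neb made up 68.8 to 89.6% of them in young and 93.9 to 95.8% in old libraries.

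All 10 genes passed the filter on low counts. The difference of old minus young, as a log2 fold change, was positive for Ttn, Neb and Des and negative for the other 7, with a median of -1.42 against 0.01 over all genes tested. For 5 of the 10 genes the CPM of young and old libraries did not overlap, with 3 (Ttn, Neb and Des) higher and 2 (Tnnt1 and Myl1) lower in the old libraries. Among all tested genes the groups did not overlap in 62.3%, with 31.2% higher and 31.0% lower. The choice of genes used this same contrast, so nothing is read from these counts.

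**Figure D1:**
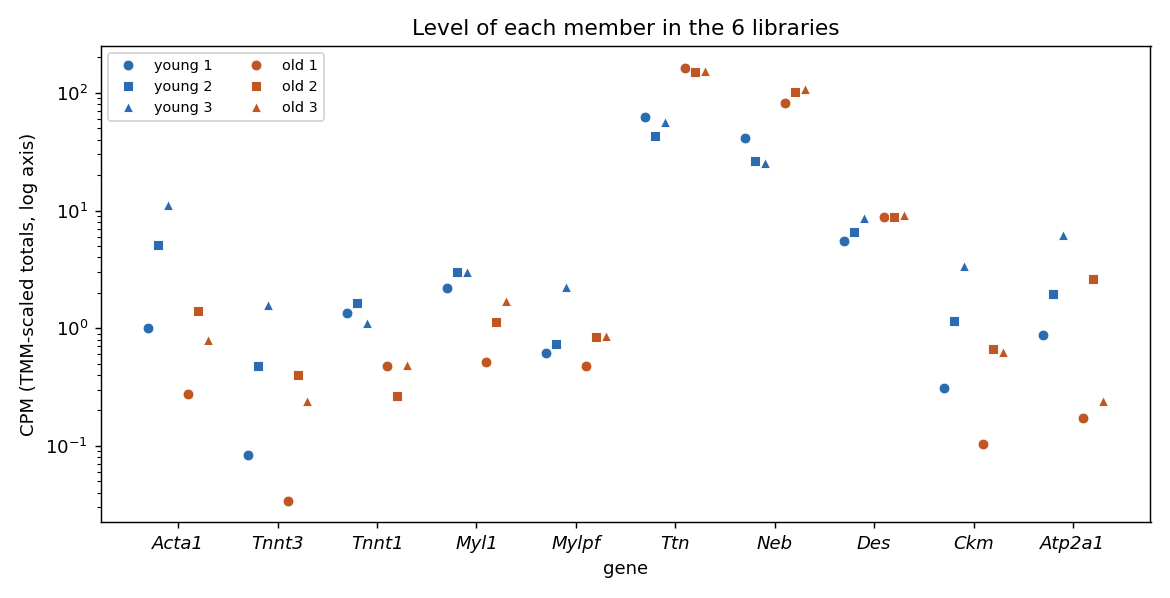
CPM of the 10 sarcomere and muscle supply genes in each library on a logarithmic axis, with 1 point per library, blue for young and orange for old, and the shape for the replicate number. Ttn and Neb stand above 20 CPM in every library and higher in the old ones, whereas Acta1, Tnnt3, Ckm and Atp2a1 spread widely within each group.

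Promoter sequence is shown for Acta1, Ckm and Atp2a1, whose levels shared an order within each age group, and for Ttn, whose levels did not follow it. The sequences are the 250 bases before the transcript start that the RefSeq promoter table uses, on the strand of the gene, in the GRCm38.p6 build. For Atp2a1, Ttn, Myl1 and Mylpf that start lies inside the gene span given below. They lie at chr8:123894776-123895025 on the minus strand for Acta1, chr7:19410844-19411093 on the plus strand for Ckm, chr7:126463074-126463323 on the minus strand for Atp2a1 and chr2:76982548-76982797 on the minus strand for Ttn. Capitals mark every match on either strand to TATAAA, to the E-box CANNTG that myogenic factors of the MyoD family bind, to the MEF2 site or to the CArG box of serum response factor.
Acta1: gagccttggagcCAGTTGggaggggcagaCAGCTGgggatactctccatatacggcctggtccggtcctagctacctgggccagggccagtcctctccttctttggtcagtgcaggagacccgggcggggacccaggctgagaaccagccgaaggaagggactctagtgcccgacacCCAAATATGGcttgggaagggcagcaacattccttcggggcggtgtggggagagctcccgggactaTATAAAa
Ckm: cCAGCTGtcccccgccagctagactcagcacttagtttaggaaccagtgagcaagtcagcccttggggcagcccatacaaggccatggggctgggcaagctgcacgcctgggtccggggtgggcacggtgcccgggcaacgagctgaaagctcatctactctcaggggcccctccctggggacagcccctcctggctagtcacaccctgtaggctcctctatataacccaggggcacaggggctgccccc
Atp2a1: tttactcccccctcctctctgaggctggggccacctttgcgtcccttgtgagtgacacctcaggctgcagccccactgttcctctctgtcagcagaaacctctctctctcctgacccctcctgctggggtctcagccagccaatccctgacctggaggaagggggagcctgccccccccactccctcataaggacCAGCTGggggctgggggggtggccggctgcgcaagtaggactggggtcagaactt
Ttn: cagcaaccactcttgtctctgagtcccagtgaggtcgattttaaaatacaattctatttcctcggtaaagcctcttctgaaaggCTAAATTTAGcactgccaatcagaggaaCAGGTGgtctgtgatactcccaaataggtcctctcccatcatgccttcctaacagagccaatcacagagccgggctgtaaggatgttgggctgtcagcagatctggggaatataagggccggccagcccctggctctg
These 4 windows each held an E-box, which 66.2% of 32851 RefSeq windows of this length hold. Acta1 had E-boxes 238 and 221 bases before the start, a CArG box 73 bases before it and TATAAA 7 bases before it. CArG boxes are in 1.47% and TATAAA in 12.4% of all windows. The window of Ttn had an E-box 138 bases and a MEF2 site 166 bases before the start, and MEF2 sites are in 2.92% of all windows. The E-box of Ckm lay 249 bases and that of Atp2a1 55 bases before the start. RefSeq windows were found for 8 of the 10 genes. Among the other windows, TATAAA lay 30 bases before the start of Tnnt1, on the strand of the gene. For Myl1 it lay 95 bases before the start, on the opposite strand. A match describes these letters and is not evidence of binding.

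The thin filament gene Acta1 (gene 11459, chromosome 8, 123891758 to 123894775, GRCm38.p6 as for all positions below) encodes skeletal alpha-actin, the main actin of skeletal muscle fibres. Acta1 had 36, 182 and 364 counts in young 1, 2 and 3 and 8, 42 and 23 in old 1, 2 and 3. Scaled, these were 1.01, 5.11 and 11.1 CPM in young and 0.275, 1.41 and 0.796 CPM in old libraries. Young 3 was the highest library and old 1 the lowest, and the groups overlapped because young 1 lay below old 2. The group means were 5.74 ± 5.07 and 0.827 ± 0.568 CPM (SD, n = 3 per group), a log2 fold change of -2.78 ± 0.75 (SE). Without young 3 it was -1.91 and without old 2 it was -3.42. Acta1 was negative under all 18 alternatives.

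Tnnt3 (gene 21957, chromosome 7, 142498771 to 142516213) and Tnnt1 (gene 21955, chromosome 7, 4504569 to 4515975) encode the troponin T of fast and of slow fibres, the subunit that ties the troponin complex to tropomyosin. Tnnt3 had 3, 17 and 52 counts in young 1, 2 and 3 and 1, 12 and 7 in old 1, 2 and 3. Its CPM was 0.084, 0.478 and 1.58 in young and 0.0343, 0.403 and 0.242 in old libraries. Young 3 alone stood above 0.5 CPM, young 1 lay below old 2 and old 3, and the groups overlapped. The 1 count in old 1 has a 95% Poisson interval of 0.0253 to 5.57 counts, which covers counting error only. Old against young, Tnnt3 had a log2 fold change of -1.62 ± 0.92 (SE), which was -0.33 without young 3 and -2.33 without old 2.

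Tnnt1 differed from Tnnt3 in its order over the libraries. It had 48, 58 and 36 counts in young 1, 2 and 3 and 14, 8 and 14 in old 1, 2 and 3. Its level was 1.34, 1.63 and 1.1 CPM in young and 0.481, 0.268 and 0.484 CPM in old libraries. The young library that was highest for Tnnt3, young 3, was the lowest young library for Tnnt1, and each old value lay below each young one. The log2 fold change of Tnnt1 was -1.72 ± 0.36 (SE) and stayed between -1.87 and -1.49 when 1 library was left out. On log2(FPKM + 1), a scale that understates changes of low genes, it was -0.61.

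Myl1 (gene 17901, chromosome 1, 66924295 to 66947932) encodes the essential light chain and Mylpf (gene 17907, chromosome 7, 127208848 to 127214288) the regulatory light chain of fast skeletal myosin. Myl1 had 79, 107 and 99 counts in young 1, 2 and 3 and 15, 34 and 49 in old 1, 2 and 3. That was 2.21, 3.01 and 3.02 CPM in young and 0.515, 1.14 and 1.7 CPM in old libraries. The groups did not overlap, and old 1 was the lowest library and old 3 the nearest to the young ones. Myl1 had a log2 fold change of -1.29 ± 0.37 (SE), with a range over the alternatives from -1.73 without old 3 to -0.81.

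Mylpf had 22, 26 and 74 counts in young 1, 2 and 3 and 14, 25 and 25 in old 1, 2 and 3. In CPM this was 0.616, 0.731 and 2.25 in young and 0.481, 0.839 and 0.865 in old libraries. Young 3 stood apart from the other 5 libraries, whose values overlapped between the groups. For Mylpf the log2 fold change was -0.71 ± 0.52 (SE), and without young 3 its sign turned, to 0.09. Mylpf overlaps Septin1 over 1580 bases in the annotation, and the sources do not say how reads of the shared span were assigned.

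Ttn (gene 22138, chromosome 2, 76703980 to 76982557) encodes titin, the giant elastic protein of the sarcomere. Ttn had 2206, 1532 and 1849 counts in young 1, 2 and 3 and 4781, 4486 and 4384 in old 1, 2 and 3. Its level was 61.8, 43.0 and 56.3 CPM in young and 164, 151 and 152 CPM in old libraries. The lowest old library stood far above the highest young one, and the values lay closer together within the old group. The means were 53.7 ± 9.64 and 155 ± 7.55 CPM (SD, n = 3 per group), 2.89-fold apart, and the log2 fold change was 1.53 ± 0.12 (SE). It stayed between 1.39 and 1.62 when 1 library was left out, and was 1.80 with library totals alone and 0.93 on log2(FPKM + 1). Per transcript length the level was 0.57, 0.46 and 0.54 FPKM in young and 1.81, 1.58 and 2.36 FPKM in old libraries, 3.66-fold apart in their means.

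Neb (gene 17996, chromosome 2, 52136640 to 52338798) encodes nebulin, which runs along the thin filament of skeletal muscle. Neb had 1478, 941 and 839 counts in young 1, 2 and 3 and 2386, 2999 and 3107.27 estimated counts in old 1, 2 and 3. Its level was 41.4, 26.4 and 25.6 CPM in young and 81.9, 101 and 108 CPM in old libraries. The groups did not overlap, and young 1, the lowest young library for most of the 10 genes, was the highest young one for Neb. The means were 31.1 ± 8.9 and 96.7 ± 13.2 CPM (SD, n = 3 per group), 3.11-fold apart, with a log2 fold change of 1.63 ± 0.18 (SE). It lay between 1.49 and 1.87 when 1 library was left out. Per length Neb had 1.89, 1.11 and 1.05 FPKM in young and 4.32, 5.48 and 7.36 FPKM in old libraries, 4.24-fold apart in the means. Within each old library the FPKM of Neb exceeded that of each of the other 9 genes. Above Neb stood 1 of the genes in young 1, Myl1 at 3.32 FPKM, 5 in young 2, led by Myl1 at 4.43 FPKM, and 7 in young 3, led by Acta1 at 7.6 FPKM. Neb overlaps the noncoding 4930573O16Rik over 24239 bases and Gm52510 over 1044 bases, and strandedness is not given, so reads of these spans cannot be told apart.

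Des (gene 13346, chromosome 1, 75360292 to 75368579) encodes desmin, the intermediate filament that ties Z discs to each other and to the membrane in striated muscle and that smooth muscle also makes. Des had 198, 234 and 284 counts in young 1, 2 and 3 and 258, 265 and 264 in old 1, 2 and 3. Its level was 5.55, 6.57 and 8.65 CPM in young and 8.86, 8.89 and 9.14 CPM in old libraries. The groups did not overlap, but young 3 lay just below the old libraries, which were nearly equal. For Des the log2 fold change was 0.37 ± 0.17 (SE), and it ranged from 0.21 to 0.66 over the alternatives, with the upper end from library totals alone.

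Ckm (gene 12715, chromosome 7, 19411094 to 19421583) encodes the muscle creatine kinase, which buffers ATP at the sarcomere. Ckm had 11, 41 and 110 counts in young 1, 2 and 3 and 3, 20 and 18 in old 1, 2 and 3. Its level was 0.308, 1.15 and 3.35 CPM in young and 0.103, 0.671 and 0.623 CPM in old libraries. Young 3 was the highest and old 1 the lowest library, and young 1 lay below old 2 and old 3. The log2 fold change of Ckm was -1.77 ± 0.79 (SE), and -0.67 without young 3. Ckm overlaps the noncoding A930016O22Rik over 3952 bases, which had 9 to 26.98 counts per library.

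Atp2a1 (gene 11937, chromosome 7, 126445858 to 126463103) encodes SERCA1, the pump that returns calcium to the sarcoplasmic reticulum in fast fibres. Atp2a1 had 31, 69 and 202 counts in young 1, 2 and 3 and 5, 78 and 7 in old 1, 2 and 3. Its level was 0.868, 1.94 and 6.15 CPM in young and 0.172, 2.62 and 0.242 CPM in old libraries. Old 2 stood apart from the other old libraries and above young 1 and young 2. The log2 fold change of Atp2a1 was -1.55 ± 0.89 (SE), and it was -3.83 without old 2 and -0.49 without young 3.

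Replicates of one age group differed far more for some of these genes than for others. The within-group SD of log2 CPM, computed with a prior count of 2, was 1.44 for Acta1, 1.49 for Tnnt3, 1.42 for Ckm and 1.68 for Atp2a1, and 98.7 to 99.7% of the tested genes of like level had a smaller one. A like level is a mean CPM within 1.5 times that of the gene. The SD was 0.75 for Mylpf and 0.6 for Myl1, above that of 90.3% and 91.3% of their like-level genes. It was 0.35 for Tnnt1 and 0.23 for Des, where 36.7% and 66.8% of like-level genes had a smaller one. For Ttn it was 0.2 and for Neb 0.31, small values that 90.6% and 97.9% of the genes at those higher levels still fell below.

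**Figure D2:**
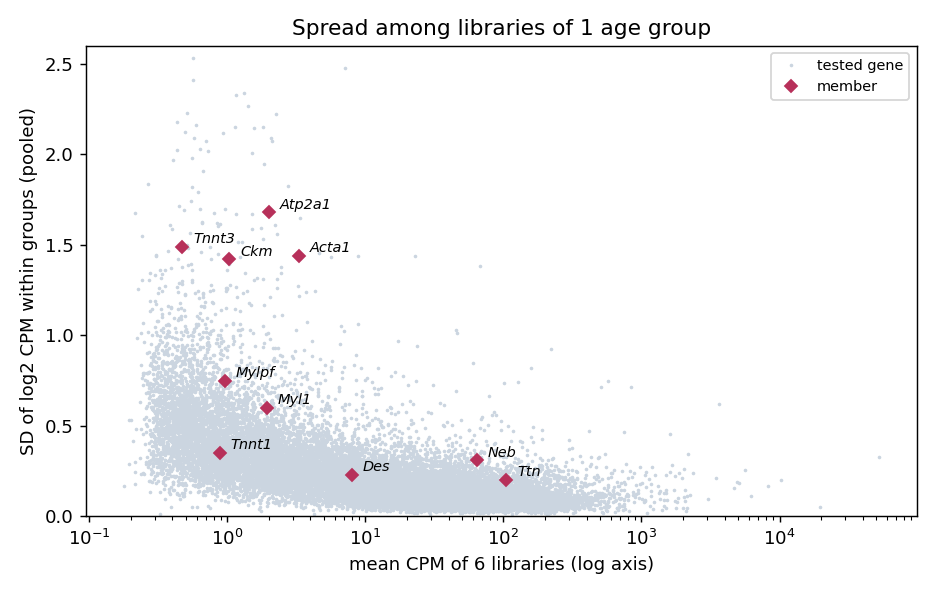
Within-group SD of log2 CPM (vertical) against mean CPM on a logarithmic axis (horizontal) for all tested genes in grey and the 10 muscle genes as labelled diamonds (members). For 6 genes the SD lies above the axis limit of 2.6. Acta1, Tnnt3, Ckm and Atp2a1 lie at SDs of 1.42 to 1.68, while Tnnt1 and Des lie within the cloud.

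The widely spread genes shared their order within each age group. Among the young libraries young 3 was highest for 7 and young 1 lowest for 7 of the 10 genes, and among the old libraries old 1 was lowest for 8 and old 2 highest for 4. Over all tested genes young 3 was the highest young library for 37.2% and young 1 the lowest for 38.9%, and old 1 was the lowest old library for 31.5% and old 2 the highest for 30.2%. The summed level of the 7 genes that were not Ttn, Neb or Des was 6.44, 14.0 and 28.5 CPM in young 1, 2 and 3 and 2.06, 7.35 and 4.95 CPM in old 1, 2 and 3. For the blood genes the sums in the same order were 2422, 3760 and 5275 CPM, and 1286, 433 and 691 CPM. That order, set by the globin genes, was the order of the muscle sum over the young libraries and the reverse of it over the old ones. The neutrophil and myeloid genes of the list did not follow it, and S100a8 had 109, 163 and 119 CPM in young and 4.88, 4.87 and 11.4 CPM in old libraries. The bone sums were 4103, 4682 and 4585 CPM, and 2497, 2344 and 2516 CPM, and did not follow the order of the muscle sum. Spp1 made up most of these sums, with 3472, 4089 and 3800 CPM in young libraries. Of the single bone genes, Bglap, Bglap2, Col1a1 (90.2, 97.6 and 244 CPM), Dmp1 and Alpl followed the muscle order over the young libraries. Spp1, Ibsp, Phex, Col1a2 and Sp7 did not. Over the old libraries only Alpl followed it. The part of blood and bone RNA in the muscle values was not tested.

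Profiles were also compared as the root mean square distance between these log2 CPM values, each gene centred on its mean over the 6 libraries. The closest pairs were Tnnt3 with Ckm and Ttn with Neb, each at a distance of 0.24, followed by Acta1 with Ckm at 0.57 and Tnnt1 with Myl1 at 0.61. The distance was greatest between Acta1 and Neb, at 2.42. The mean profile of the 10 genes was closest to those of Ccl5 (0.16), Nr1d1 (0.19), 4833438C02Rik (0.26), Mtln (0.27), Cd14 (0.28), Ier3 (0.29), Gm30191 (0.30), Echdc3 (0.31), Wfdc18 (0.31) and Cmbl (0.32) among 16010 named genes with a mean of at least 1 CPM. That mean mixes genes that were higher and genes that were lower in the old libraries, so a gene close to it need not be close to the single genes. For the single genes, looked up after the values were seen, the closest gene outside the set was Knstrn for Tnnt1 (0.06), Gm38927 for Ttn (0.08), 9330159H11Rik for Neb (0.08) and Bmp6 for Des (0.05). Among the genes searched, the widely spread genes had no such close partner. The search left out the 10 genes themselves and every gene with a mean under 1 CPM, such as the muscle genes Ryr1, Actn3 and Tnnc2. The nearest was Smim22 for Acta1 (0.78), Ccl5 for Tnnt3 (0.76), Rps15a-ps4 for Ckm (0.72) and S100a4 for Atp2a1 (0.88). These distances rest on 6 libraries that share the age contrast and are descriptions.

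**Figure D3:**
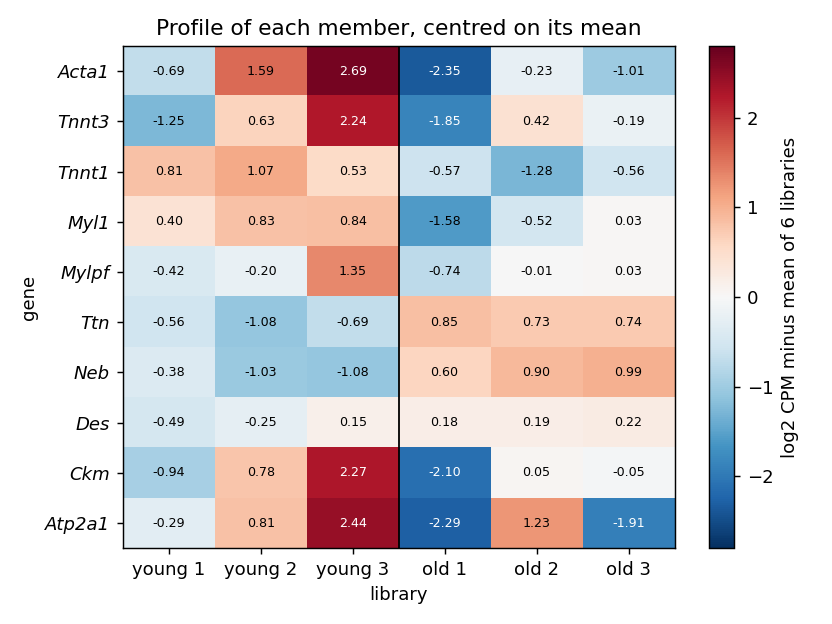
Heat map of log2 CPM of each of the 10 genes (rows) in each library (columns), minus the mean of the gene over the 6 libraries, with red above and blue below the mean. Acta1, Tnnt3, Ckm and Atp2a1 are lowest of the young libraries in young 1, highest in young 3 and lowest of all in old 1, whereas Ttn and Neb are below 0 in all young and above 0 in all old libraries.

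Fast and slow fibre versions were compared within each library as log2 ratios of FPKM, wherever both genes had at least 3 counts. The ratio of fast Tnnt3 to slow Tnnt1 was -3.64, -1.46 and 0.89 in young 1, 2 and 3 and 0.81 and -1.18 in old 2 and old 3, so it spanned both signs in both age groups. Fast Myl1 exceeded the slow and cardiac light chain gene Myl3 in every library, with log2 ratios of 2.71 to 4.38 in young and 0.41 to 4.18 in old libraries. Atp2a1 was far below Atp2a2, the calcium pump gene of slow fibres and most other cells, with log2 ratios of -8.63 to -5.82 in young and -10.54 to -6.50 in old libraries. Mylpf had no ratio, because its slow counterpart Myl2 had 0 to 2 counts.

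Outside the 10 genes, the ratio of fast Mybpc2 to slow Mybpc1, both myosin-binding proteins, was -3.75 to -3.26 in young and -2.99 to -2.87 in old libraries. Casq1 against Casq2, the fast and the slow calcium store proteins, gave 1.65 to 1.92 in young and 0.17 to 1.04 in old libraries. The ratio of the fast myosin heavy chain gene Myh4 to slow Myh7 was 4.09 and 3.77 in young 2 and young 3 and -1.70 in old 3. These ratios rest on few counts, 40 against 3, 91.59 against 7.18 and 6 against 20.01. Fast Tnni2 against slow Tnni1 gave -0.34, 2.26 and 2.73 in young 1, 2 and 3 and 2.12 in old 2. The counts were 5 against 10, 18 against 7, 24 against 6 and 8 against 3. Fast Tnnc2 against slow Tnnc1 gave -1.50, 1.26 and 2.17 in the young libraries. There the counts were 3 against 9, 16 against 7 and 38 against 9. Of the 9 fast genes of all pairs, 4 of which (Tnnt3, Myl1, Mylpf and Atp2a1) belong to the 10 genes, young 3 was the highest young library for 8 and young 1 the lowest for 8. Of the 9 slow genes, the corresponding counts were 5 and 3, and over all tested genes the shares were 37.2% and 38.9%.

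Transcript length moved with the difference between age groups over the whole transcriptome, and the 10 genes differ widely in length. The longest annotated transcript has 106824 bases in 347 exons for Ttn and 22489 bases in 157 exons for Neb, against 766 bases for Mylpf, 1446 for Acta1 and 3477 for Atp2a1. Among tested protein-coding genes the median log2 fold change was -0.57 for the 1495 genes with an effective length under 1 kb and 0.82 for the 32 genes of at least 15 kb, the length being the one implied by the counts and FPKM. The longest class includes Ttn and Neb themselves, so its values are not independent of these genes. In that class 65.6% rose and 9.38% fell, and in the shortest 7.83% rose and 54.8% fell. The 44 coding genes within 1.5 times the length of Neb had a median of 0.24 against 1.63 for Neb, and the 3 within 1.5 times that of Ttn had a median of 1.44 against 1.53 for Ttn. Like-length genes had a median of -0.27 for Acta1 and -0.33 for Tnnt1, against their -2.78 and -1.72. The median was -0.57 for Mylpf against its -0.71, -0.49 for Myl1 against its -1.29 and -0.41 for Tnnt3 against its -1.62. It was -0.29 for Ckm against its -1.77, -0.08 for Atp2a1 against its -1.55 and -0.1 for Des against its 0.37. The part of length in the values of Ttn and Neb was not tested. The effective length implied for Neb was 20.4 to 21.5 kb in 5 libraries and 16.1 kb in old 3, and that for Ttn was 84.5 to 106 kb in 5 libraries and 70.8 kb in old 3. The FPKM of both genes in old 3, and with it their FPKM folds, are thus raised relative to the counts.

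**Figure D4:**
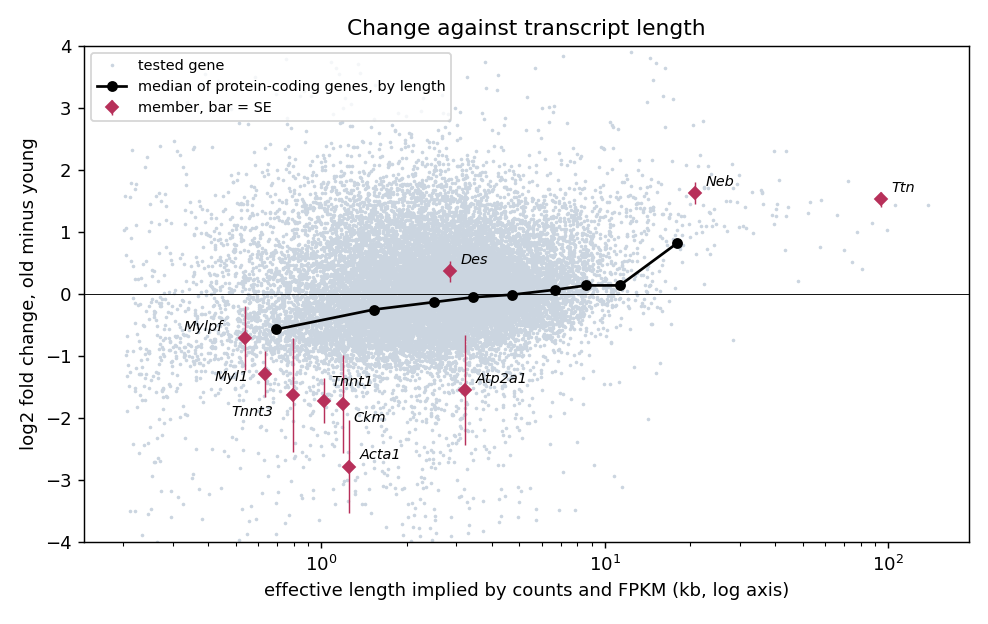
Log2 fold change of old minus young (vertical) against effective length in kb on a logarithmic axis (horizontal) for tested genes in grey, with the median of protein-coding genes in each length class as black points and the 10 muscle genes as diamonds with the SE as a bar. Not drawn are 108 genes without a length above 0.2 kb and 100 beyond the axis limits of -4 and 4. The class medians climb from -0.57 under 1 kb to 0.82 at 15 kb or more, a class that includes Ttn and Neb, which lie at 1.53 and 1.63.

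Other genes of skeletal muscle were examined in 6 lists by role that hold none of the 10 genes. Of 101 with an entry, 68 could be tested, 16 rose and 12 fell in the old libraries, and 40 did not pass, with a median log2 fold change of -0.10 against 0.01 over all genes. That is 23.5% higher and 17.6% lower, beside 26.9% and 27.3% over all genes. With library totals alone 21 rose and 6 fell, and with limma on log2(FPKM + 1) 20 rose and 4 fell. Without young 2 the rises numbered 9 and without young 3 they numbered 10. The other 33 genes had at most 38 counts in any library. The summed level of the lists was 1570 to 1837 CPM in young and 1302 to 1366 CPM in old libraries, and by the group means most of it came from Atp2a2, Cryab and Pfkm, which other cells also express.

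In the thick filament list, 1 of 11 tested genes rose and 2 fell. Myh7b, a slow-type myosin heavy chain, rose from 3.82 ± 1.29 to 8.51 ± 1.89 CPM (log2 fold change 1.15 ± 0.25, edgeR adjusted p = 0.0033). Mybpc1, slow myosin-binding protein C, fell from 28.8 ± 2.36 to 18.0 ± 2.24 CPM (-0.68 ± 0.12, edgeR adjusted p = 0.000883). Mylk4, a myosin light chain kinase, fell (-0.96 ± 0.37, edgeR adjusted p = 0.0458), a call lost without young 2 (0.16), young 3 (0.152), old 1 (0.124) or old 2 (0.0968). The heavy chain gene Myh1 of fast fibres had 3, 17.94 and 64.81 counts in young and 5.72, 81.88 and 2.45 in old libraries, with the same high libraries, young 3 and old 2, as Atp2a1. Myh4 had these high libraries too, whereas Myh2 was highest in young 3 and old 3, with 27 and 10 counts. In the thin filament list 2 of 7 rose and the other 5 did not pass. Tpm1, a tropomyosin that smooth muscle and other cells also make, rose from 60.1 ± 4.09 to 77.6 ± 7.76 CPM (0.37 ± 0.09, edgeR adjusted p = 0.00807). Tmod4, which caps thin filaments, rose (0.83 ± 0.23, edgeR adjusted p = 0.0128), a call lost without young 2 (0.0523) or young 3 (0.0536).

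Of 20 tested genes of the Z disc and M band, 6 rose and 5 fell, with a median of -0.24. Xirp1, which binds actin at the ends of myofibrils, rose from 0.287 ± 0.0917 to 1.13 ± 0.494 CPM (1.96 ± 0.45, edgeR adjusted p = 0.00449). Actn2, the alpha-actinin of Z discs, rose from 4.18 ± 0.442 to 8.51 ± 2.16 CPM (1.02 ± 0.20, edgeR adjusted p = 0.002). Pdlim3, a binding partner of alpha-actinin, rose (1.39 ± 0.43, edgeR adjusted p = 0.0203), a call lost without young 2 (0.084), young 3 (0.0744), old 2 (0.0889) or old 3 (0.0528). Myom2, a myomesin of the M band in fast fibres, fell (-1.15 ± 0.42, edgeR adjusted p = 0.0399), and without young 2, young 3, old 1 or old 2 its adjusted p was 0.0999 to 0.153.

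Among 12 tested genes of calcium release and uptake 3 rose and 1 fell. Jsrp1, a protein of the junction between the membrane and the calcium store, rose from 1.97 ± 0.101 to 4.94 ± 0.971 CPM (1.33 ± 0.21, edgeR adjusted p = 0.000543), and the calcium channel subunit gene Cacnb1 rose from 13.9 ± 0.809 to 22.1 ± 2.48 CPM (0.67 ± 0.12, edgeR adjusted p = 0.000926). Jph2, a junction protein, rose (0.84 ± 0.28, edgeR adjusted p = 0.0268), a call lost without young 1 (0.0873), young 2 (0.0874), old 1 (0.0526) or old 2 (0.106). Atp2a2 fell from 475 ± 27.9 to 346 ± 21.5 CPM (-0.46 ± 0.08, edgeR adjusted p = 0.0011), a call lost with library totals alone (-0.19, adjusted p = 0.093) and on log2(FPKM + 1) (adjusted p = 0.309).

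Among 11 tested genes of muscle energy supply 3 rose and 4 fell. Cox8b, a subunit of the respiratory chain in heart and skeletal muscle, fell from 44.8 ± 14.8 to 14.0 ± 0.525 CPM (-1.68 ± 0.21, edgeR adjusted p = 0.000153), and Pfkm, a glycolytic enzyme, from 242 ± 7.0 to 130 ± 13.0 CPM (-0.89 ± 0.09, edgeR adjusted p = 4.34e-05). Cox7a1 fell (-0.76 ± 0.22, edgeR adjusted p = 0.0143), a call lost without old 2 (0.0602), with library totals alone (0.067) and on log2(FPKM + 1) (0.291). Ckmt2, the mitochondrial creatine kinase of muscle and so the partner of Ckm, rose (0.71 ± 0.27, edgeR adjusted p = 0.0463), a call lost without young 2 (0.177), young 3 (0.118), old 1 (0.14) or old 3 (0.1). Of 7 tested genes of the muscle membrane, synapse and myogenic factors, Dmd alone passed, and it rose from 43.1 ± 3.16 to 69.3 ± 3.65 CPM (0.68 ± 0.09, edgeR adjusted p = 0.000155). Dmd encodes dystrophin, of which nerve and other cells make shorter forms.

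**Figure D5:**
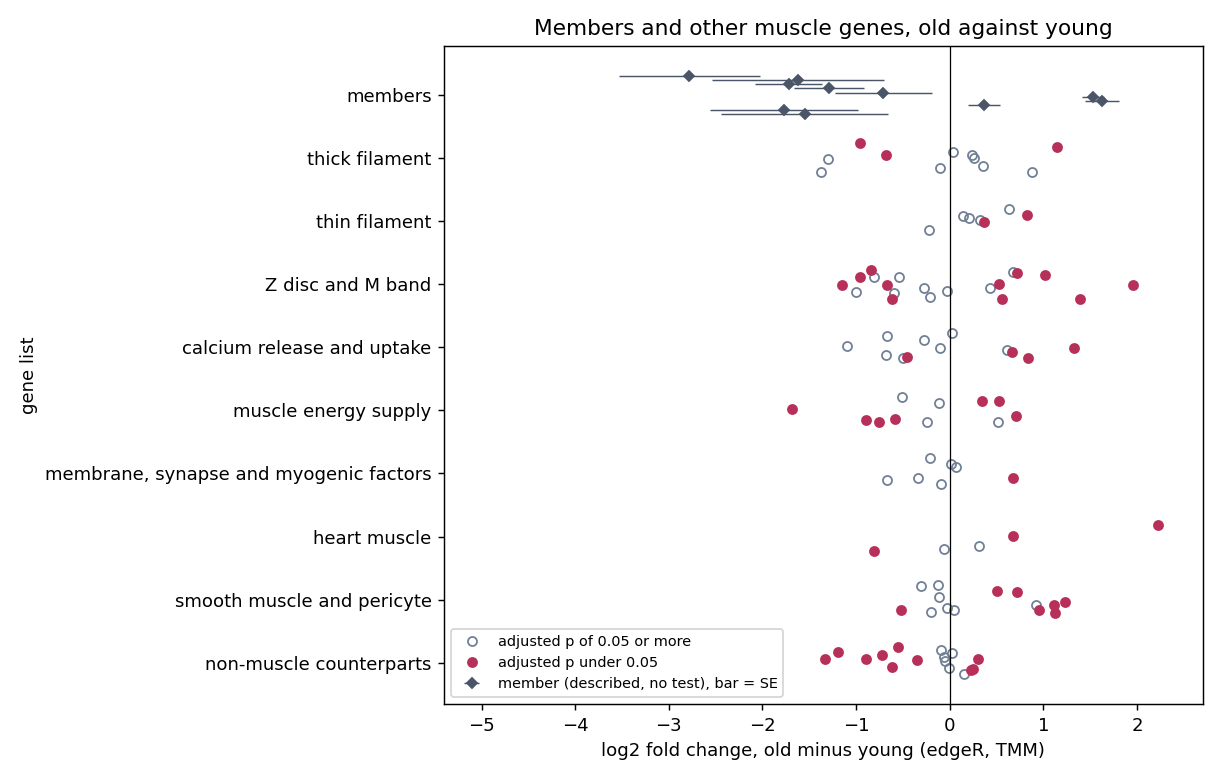
Log2 fold change of old minus young (horizontal) for the 10 muscle genes, as diamonds with the SE as a bar, and for every tested gene of the other lists (vertical), with filled points for an edgeR adjusted p under 0.05. The lists of skeletal muscle genes lie on both sides of 0, with 16 higher and 12 lower at the threshold.

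The lists of related cell types hold relatives of single genes of the set, and their counts stand beside 26.9% higher and 27.3% lower over all tested genes. Of 5 tested heart muscle genes 2 rose and 1 fell. Tnnt2, the troponin T of heart, rose from 0.816 ± 0.0257 to 3.82 ± 0.591 CPM (2.22 ± 0.24, edgeR adjusted p = 6.55e-05), against the negative values of its relatives Tnnt1 and Tnnt3, and Ryr2, a calcium release channel that nerve cells also use, rose (0.68 ± 0.15, edgeR adjusted p = 0.00328). Myl4, an atrial light chain, fell (-0.81 ± 0.30, edgeR adjusted p = 0.0418), a call lost without young 2 (0.176), young 3 (0.106), old 1 (0.0955) or old 2 (0.105). The summed level of the heart genes was 51.0 to 73.9 CPM in young and 89.0 to 99.1 CPM in old libraries, and Ryr2 alone made up most of it, with 51.3 ± 12.5 and 82.2 ± 6.35 CPM. The atrial genes Myl7 and Nppa were at 0 in all libraries. Of 14 tested genes of smooth muscle and pericytes 6 rose and 1 fell, and their summed level was 458 to 482 CPM in young and 598 to 656 CPM in old libraries. Myh11, the smooth muscle myosin heavy chain, rose from 6.0 ± 0.69 to 14.1 ± 1.71 CPM (1.23 ± 0.15, edgeR adjusted p = 0.000113), and Lmod1 (1.12 ± 0.13), Smtn (1.11 ± 0.12) and Notch3 (0.95 ± 0.11) rose too. Abcc9, a channel subunit of pericytes, fell (-0.52 ± 0.10, edgeR adjusted p = 0.00189), a call lost with library totals alone and on both FPKM scales. The smooth muscle markers Acta2 (-0.11 ± 0.23), Tagln (-0.13 ± 0.17) and Mylk (-0.20 ± 0.09) did not pass, so the list did not move as one. Des was higher in the old libraries beside the summed level of this list, and the part of smooth muscle in its value was not tested.

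Actins and light chains of non-muscle cells fell in the old libraries. Of 16 non-muscle counterparts 7 fell and 3 rose, beside 27.3% lower and 26.9% higher over all tested genes. With library totals alone 6 fell and 8 rose, so that the balance of the list turned with the scaling. Actb fell from 2859 ± 381 to 1249 ± 35.9 CPM (-1.19 ± 0.11, edgeR adjusted p = 2.74e-05), Actg1 from 1310 ± 118 to 709 ± 12.2 CPM (-0.89 ± 0.09) and the light chain genes Myl6 from 232 ± 36.0 to 92.5 ± 2.38 CPM (-1.33 ± 0.11) and Myl12b from 100 ± 17.6 to 60.7 ± 2.2 CPM (-0.72 ± 0.12). Without young 2 or young 3, edgeR called 0 genes of this list higher, with 3 and 1 higher at an unadjusted p under 0.05. The difference between the fold changes of the muscle genes and of these counterparts was not tested.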

How the data were processed

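Total RNA of the basal cochlea was isolated with Trizol, and DNA and ribosomal RNA were removed, per the labels' protocols. The authors deposited estimated counts per gene and library, of which 20.2% are not whole, and FPKM values for the gene entries. Per the submitters' processing notes the build was GRCm38.p6. The aligner, the quantifier and the strandedness are not given in the labels. The 8228 circular RNA entries were left out.

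Estimated counts were rounded and tested with edgeR 4.0.16 in R 4.3.3 (filterByExpr by group, TMM, quasi-likelihood F test, Benjamini-Hochberg adjustment over 20157 genes, threshold 0.05), after the script was checked on simulated data. CPM uses TMM-scaled totals. A value after ± is the SD over 3 libraries for CPM and the SE for a log2 fold change of old minus young. FPKM were used for levels per length and in alternatives, on log2(FPKM + 1) and log2(FPKM + 0.1), with limma 3.58.1. Other alternatives were DESeq2 1.42.0, limma-voom, other scalings, other filters, a replicate block, removal of the 10 features with the most counts and globins, and leaving out each library, 18 in all. Each alternative changed 1 choice, except that DESeq2 changed scaling and test, and the FPKM alternatives changed values, scaling and test together.

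The sarcomere genes, the gene lists and the tests were chosen with earlier results of these data known. Named were all 10 genes in every library, the genes of the fast and slow pairs, up to 4 called genes with the largest change per list of muscle genes, and the nearest profiles. Myh1, Myh2, Acta2, Tagln, Mylk, S100a8, single bone genes and the muscle lineage factors, among others, were named outside this rule. Sln, Chrnd, Myf5 and Nppb were listed but not analysed here, and 1 listed gene is counted but not reported by name. Promoter windows are from RefSeq. Gene totals per library, 26245416 to 39433584 counts, limit the precision of genes with few counts, and Poisson intervals and floors cover counting error only.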

Additional observations from a re-analysis of the deposited data

How the results depend on the processing

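The signs of the log2 fold changes of Acta1, Tnnt3, Tnnt1, Myl1, Ttn, Neb, Des, Ckm and Atp2a1 were kept under each alternative in which they could be fitted, and that of Mylpf turned without young 3. The median over the 10 genes was -0.41 without young 3 and -0.40 on log2(FPKM + 1). With a mean count of at least 50 it was -0.41 over the 6 genes left, without Tnnt3, Tnnt1, Mylpf and Ckm. It ran from -1.60 to -0.41 when 1 library was left out.

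With library totals alone 8259 genes rose and 2920 fell, and on log2(FPKM + 1) and log2(FPKM + 0.1) 2758 and 2792 fell. Of the other skeletal muscle genes 6 fell with library totals alone and 4 with either FPKM scale. When 1 library was left out, 9 to 15 rose and 9 to 18 fell. The heart list had 0 falls with upper-quartile scaling, library totals alone, TMM on coding genes, a mean count of at least 50, DESeq2 or the replicate block, and 0 to 1 when 1 library was left out. The smooth muscle list had 0 falls with library totals alone and with either FPKM scale, and 1 to 2 when 1 library was left out. The non-muscle list had 8 rises with library totals alone, 1 without a filter, 7 with either FPKM scale, and 0 to 2 when 1 library was left out. At an unadjusted p under 0.05 these counts of 0 were 0 to 1 for the heart and smooth muscle lists. The calls of Mylk4, Myom2 and Myl4 were lost in 13, 12 and 9 of the 18 alternatives. The cause was not tested.

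Like-numbered libraries of the age groups did not deviate together (r = -0.0817, 0.0262 and -0.0574 for numbers 1, 2 and 3, across genes, which are not independent replicates). These values show no sign of pairing by number but cannot exclude it. With the replicate number as a block 4860 genes rose and 5079 fell, and 13 of the other skeletal muscle genes rose and 11 fell. Among the genes named, the block ended the calls of Pdlim3 (adjusted p = 0.0505), Jph2 (0.0528), Mylk4 (0.0716), Myom2 (0.0682) and Myl4 (0.0671).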
